A study of Mus musculus with 24 samples.

Results

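This report describes 6 of the 24 libraries of the series: those of mouse marrow-derived mesenchymal stem cells (mdMSC) kept for 15 days in osteogenic medium, of which 3 received vitamin D hormone and 3 received vehicle. The libraries were chosen by their labels alone, and all genes were measured in each. The cells came from frozen stocks expanded for at most 10 passages, grew in MEM alpha with fetal bovine serum, and were moved at confluency to medium with beta-glycerophosphate and ascorbic acid, the phosphate source and cofactor used to drive bone matrix formation in culture. The hormone, 1,25(OH)2D3 (VD3 below), was given at 100 nM for the last 24 hours, and the vehicle was ethanol. The other 18 libraries hold the same 2 treatments, with 3 libraries each, in undifferentiated cells (day 0), after 7 days of the osteogenic medium, and after 7 days of adipogenic medium with insulin, indomethacin and dexamethasone. No genetic change is labelled for any library. The labels give 1 source of cultured cells and name no animals, so spread between mice was not measured. The labels do not say whether the 3 libraries of a group came from separate cultures, so p-values measure the spread between these libraries, which may be technical.

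1,25(OH)2D3, the active vitamin D hormone, binds the nuclear receptor Vdr, which sits on DNA as a heterodimer with a retinoid X receptor. In cells of the osteoblast lineage the hormone is known to induce its own breakdown enzyme, Cyp24a1, and to act on genes of bone matrix, mineral handling and signalling to osteoclasts. Whether it favours or restrains mineralization is known to depend on the stage of the cells, and the 15-day cells are the late stage of this series.

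Levels are RPKM, reads per kilobase of transcript and per 1 M reads, so that levels of different genes are compared per length. Differences are VD3 minus vehicle on the scale of log2(RPKM + 1), from a limma fit, with their standard error (SE) and a Benjamini-Hochberg adjusted p. This scale understates the change of genes below a few RPKM. A gene is said to have risen or fallen only where its adjusted p was under 0.05.

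The 6 libraries had an estimated depth of 31.9 to 44.2 M reads, so that for a 1 kilobase transcript 3 reads equal 0.0678 to 0.0941 RPKM. Libraries of 1 group correlated at 0.982 to 0.993 for vehicle and 0.986 to 0.992 for VD3 (Pearson's r across genes, which are not independent replicates). A background signal moved with the treatment. The median of 1497 olfactory, vomeronasal and taste receptor genes, which these cells should not use, was 0.265 to 0.427 RPKM in the vehicle libraries and 0.458 to 0.546 RPKM in the VD3 libraries. The noncoding RNA Rn7sk took 18.9 to 24.9% of the summed RPKM with vehicle and 13.3 to 22.9% with VD3. The part of the background signal and of Rn7sk in the results was not tested beyond the alternatives given below.

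Genes of bone matrix were expressed in the cells at day 15. Spp1 (osteopontin) and Ibsp (bone sialoprotein), secreted bone phosphoproteins, were among the most abundant genes named here (values below). Bglap (osteocalcin) was at 19.5, 17.8 and 22.8 RPKM with vehicle, and the regulators Runx2 and Sp7 were lower (values below). These genes do not by themselves set the state apart: Ibsp also fell with VD3 in adipogenic cells (-4.64) and undifferentiated cells (-2.02), so it was expressed there too. The 13 marrow stromal markers summed to 1335.6 to 1421.3 RPKM with vehicle and 1242.5 to 1396.9 RPKM with VD3. Of these 13, only Thy1 and Eng were below 1 RPKM in all 6 libraries. Of the lists for other cell types, that of smooth muscle and pericytes was abundant, with sums of 1009 to 1110 RPKM with vehicle and 956 to 1067 RPKM with VD3, led by the actin gene Acta2 at 516 to 611 RPKM, while Myh11 was below 1 RPKM in every library. Summed osteoclast markers were 120 to 134 and 128 to 133 RPKM, nearly all from the protease gene Ctsk, and 5 of the 8 were below 1 RPKM in every library. The other lists were lower. All 10 lymphoid and erythroid markers and 7 of 8 endothelial markers were below 1 RPKM in every library, as were 8 of 11 chondrocyte markers and 11 of 18 adipocyte markers. Summed adipocyte markers were 65.3 to 68.7 RPKM with vehicle and 74.5 to 83.7 RPKM with VD3, summed macrophage markers 5.62 to 7.73 and 6.54 to 8.06 RPKM, summed chondrocyte markers 10.9 to 12.1 and 8.84 to 11.4 RPKM, summed endothelial markers 11.9 to 14.7 and 10.8 to 11.8 RPKM, and summed lymphoid and erythroid markers 1.40 to 2.11 and 2.23 to 4.25 RPKM. None of the members of the 8 cell type lists that could be tested rose or fell. The part of these differences in marker sums in the gene results was not tested. In bulk RNA, fewer cells of a type and less RNA per cell cannot be told apart.

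VD3 raised 111 genes and lowered 52 at day 15. Of the 21097 genes tested, 0.773% changed, with 0.526% higher and 0.246% lower. The filter behind these shares used all 24 libraries, so it let in genes that were low at day 15. With the filter on the 6 compared libraries 12325 genes were tested, of which 127 rose and 70 fell. Of the 7978 genes that averaged 5 RPKM or more, 74 rose and 48 fell in the main fit. The shares over all tested genes, given beside the lists below, are thus lower than those among expressed genes. The rises were the larger changes: 26 of them reached 1 log2 unit, their median was 0.77 and the largest was 3.26, for Cyp24a1. Among the falls 3 reached that size, the median was -0.54 and the largest was -1.32, for Ibsp. Genes that fell were the more abundant ones, with a median vehicle level of 44.0 RPKM against 7.08 RPKM for genes that rose. In all 163 changed genes the 3 VD3 libraries lay wholly above or wholly below the 3 vehicle libraries, a pattern that 15.8% of all tested genes showed. The median difference over all tested genes was 0.02. Of the rises, 26 had a higher group mean under 5 RPKM, near the range where the background signal counts most. With each library's receptor-gene background subtracted, 56 genes rose and 26 fell among 13668 tested, and with only the 6 libraries in the fit 45 rose and 18 fell. Median-ratio rescaling gave 118 higher and 35 lower, so that 77.1% of calls were rises against 68.1% as deposited.

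**Figure D1:**
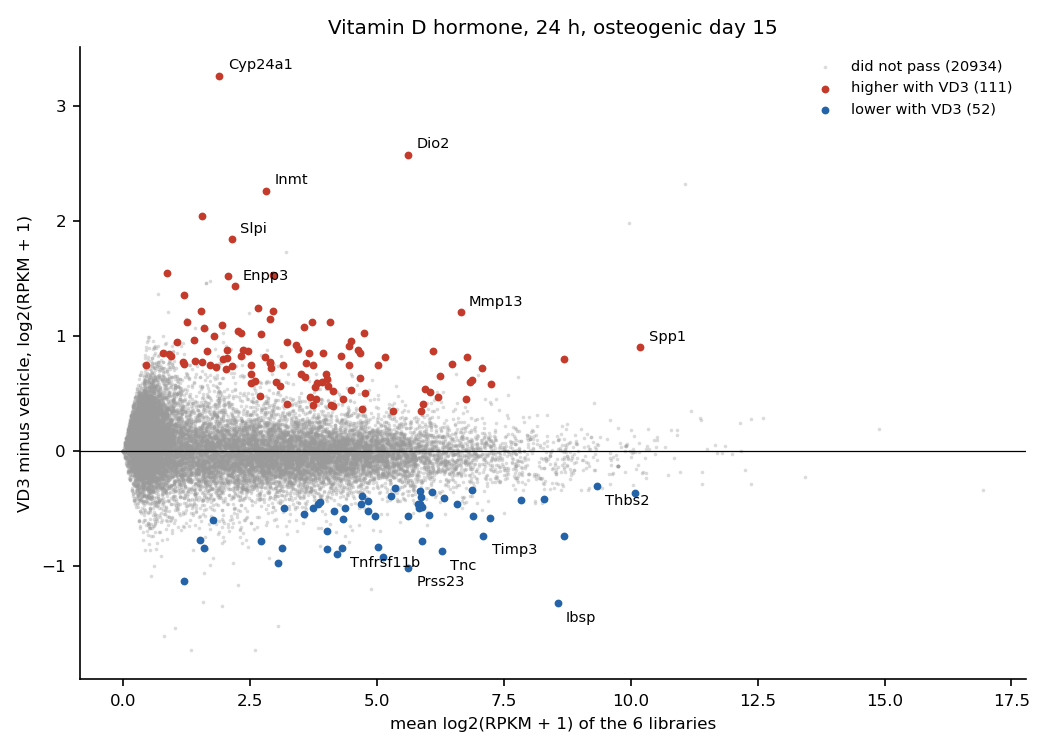
Difference between VD3 and vehicle (y axis, log2(RPKM + 1)) against the mean level of the 6 libraries (x axis, log2(RPKM + 1)) for the 21097 tested genes of osteogenic day 15. Red points are the 111 genes that rose, blue points the 52 that fell and grey points the 20934 that did not pass; rises reach 3.26 and falls -1.32.

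Among genes of the hormone's own machinery, only that of the breakdown enzyme passed. Cyp24a1, the mitochondrial hydroxylase that inactivates 1,25(OH)2D3, was at 0.523, 0.09600 and 0.03400 RPKM in the vehicle libraries and at 8.93, 9.46 and 13.6 RPKM with VD3. Every VD3 library was far above every vehicle library, and the rise was 3.26 ± 0.19 (SE; adjusted p = 6.6e-10). All vehicle values were below 1 RPKM and they differed widely among themselves, so no ratio is given. Cyp24a1 was the only gene to pass among 17 tested genes of the receptor, its partners, cofactors and vitamin D metabolism, 5.88% against 0.773% of all genes, and the list's median was 0.05 against 0.02 over all genes. At osteogenic day 7, 3 of the 17 rose, and the difference between the days passed for none of them.

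The receptor gene itself was low. Vdr stood at 0.843, 0.832 and 0.914 RPKM with vehicle and 1.44, 1.75 and 1.68 RPKM with VD3, so the groups did not overlap, but the difference of 0.49 ± 0.18 did not pass (adjusted p = 0.45). Its partner Rxra stood at 7.85, 8.45 and 9.902 RPKM and 9.04, 8.61 and 6.76 RPKM, with overlapping groups. Cyp27b1, which makes the active hormone, was at most 0.389 RPKM in any of the 6 libraries and its groups overlapped.

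Of the largest rises, Dio2 and Mmp13 reached the highest levels. Dio2, the deiodinase that activates thyroid hormone, was at 20.2, 18.4 and 18.6 RPKM with vehicle and 120.3, 104 and 133 RPKM with VD3. The groups were far apart, 6.24-fold by their means (2.57 ± 0.15, adjusted p = 6.6e-10). Inmt, a methyltransferase of tryptamine and other amines, went from 2.73, 1.41 and 2.74 RPKM to 11.7, 14.7 and 17.4 RPKM, a ratio of 6.38 (2.26 ± 0.20, adjusted p = 8.3e-07). Slpi, a secreted inhibitor of leukocyte proteases, went from 1.86, 1.15 and 1.03 to 6.65, 6.07 and 9.56 RPKM, a ratio of 5.51 (1.84 ± 0.27, adjusted p = 0.00049). No vehicle library reached a VD3 library in any of these genes. Slpi did not pass with a pseudocount of 0.1 (adjusted p = 0.11).

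A second tier of rises lay near 1 log2 unit. Sesn1, a stress-responsive p53 target, was at 7.402, 7.71 and 8.72 RPKM with vehicle and 18.99, 18.3 and 18.03 RPKM with VD3 (1.12 ± 0.12, adjusted p = 9.4e-06). Npr3, the clearance receptor of natriuretic peptides, was at 8.61, 11.8 and 11.3 and 24.2, 24.4 and 23.1 RPKM (1.12 ± 0.11, adjusted p = 2.1e-06). Fam110c, Slc43a3 (a solute carrier) and Slfn2 (a schlafen family member) rose by 1.24, 1.07 and 1.02. In these 5 genes the VD3 libraries were tight and clear of the vehicle libraries. Ptx3, a secreted pentraxin of innate immunity, rose by 1.04 with a wider vehicle range, 1.09, 3.77 and 2.68 RPKM, and did not pass with only the 6 libraries in the fit (adjusted p = 0.3).

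Of the 15 largest rises, Mmp13 and Enpp3 are given below with the genes of their lists, and Lgals2, Gzme and Bdkrb2 were less stable when single libraries were left out. Lgals2, a galectin, rose by 1.52 and Gzme, a granzyme, by 1.52, each with VD3 libraries that differed among themselves (12.9, 7.66 and 17.2 RPKM and 4.97, 3.12 and 13.4 RPKM). Bdkrb2, the bradykinin receptor, rose by 1.14 (adjusted p = 0.04). Lgals2 did not pass with vehicle replicate 1, VD3 replicate 1 or VD3 replicate 3 left out (adjusted p of 0.057 to 0.079). Gzme did not pass with any 1 vehicle library left out (adjusted p of 0.067 to 0.096). Bdkrb2 did not pass with any 1 of the 6 libraries left out (adjusted p of 0.056 to 0.28). Gzme belongs to a family of near-identical granzymes, so its reads may be shared with relatives.

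**Figure D2:**
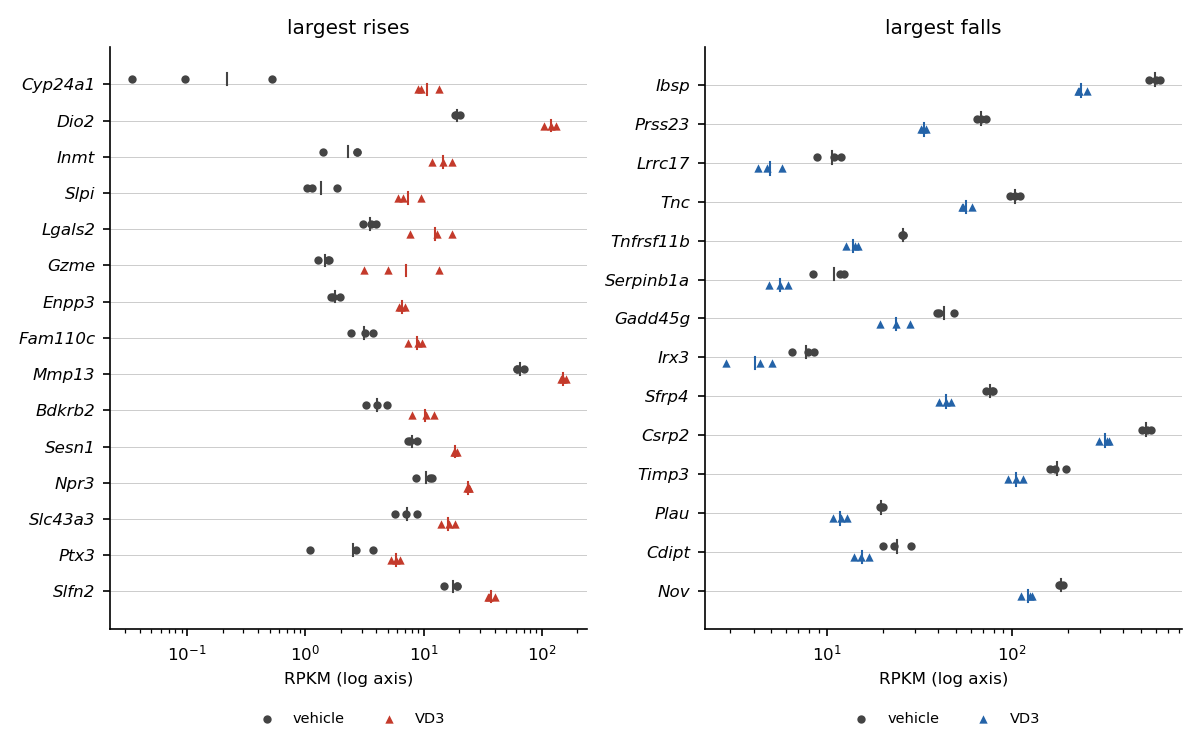
RPKM (x axis, log scale) in each of the 6 libraries for the 15 largest rises (left) and 14 of the 15 largest falls (right) among genes whose higher group averaged 5 RPKM or more; circles are vehicle, triangles VD3 and the short bars group means. The VD3 and vehicle libraries do not overlap in any of the 29 genes; Ibsp goes from 555 or more with vehicle to 254 or less with VD3.

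The largest falls included genes of several functions. Ibsp, the bone sialoprotein that binds mineral and integrins, was at 555, 635 and 599.7 RPKM with vehicle and 228, 254 and 231 RPKM with VD3. The vehicle mean was 2.51 times the VD3 mean, with no overlap (-1.32 ± 0.10, adjusted p = 1.1e-07). Prss23, a secreted serine protease, went from 67.6, 72.1 and 65.02 to 33.2, 32.2 and 34.3 RPKM (-1.02 ± 0.08, adjusted p = 2.6e-07). Csrp2, a LIM-domain protein of muscle-like cells, was one of the most abundant genes to fall, from 562, 505 and 536 to 296, 335 and 328 RPKM (-0.74 ± 0.13, adjusted p = 0.0027). Lrrc17, a secreted leucine-rich repeat protein, fell by 0.98 on the log2 scale, Gadd45g, a growth arrest and DNA damage gene, by 0.84, Serpinb1a, an inhibitor of elastase, by 0.85, Irx3, a homeobox factor, by 0.79 and Cdipt, which makes phosphatidylinositol, by 0.59. Several of these did not hold without single libraries. Lrrc17 did not pass with vehicle replicate 1, vehicle replicate 2, VD3 replicate 1 or VD3 replicate 3 left out (adjusted p of 0.0544 to 0.093). Gadd45g did not pass with vehicle replicate 1 or VD3 replicate 2 left out (adjusted p of 0.081 to 0.082). Serpinb1a did not pass with vehicle replicate 1, vehicle replicate 2, VD3 replicate 1 or VD3 replicate 2 left out (adjusted p of 0.075 to 0.17). Irx3 did not pass with vehicle replicate 1, vehicle replicate 3, VD3 replicate 1 or VD3 replicate 3 left out (adjusted p of 0.0539 to 0.16). Cdipt did not pass with vehicle replicate 1, vehicle replicate 3, VD3 replicate 1 or VD3 replicate 3 left out (adjusted p of 0.058 to 0.19). Nor did Cdipt pass when the largest transcript value replaced the sum over transcripts.

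Of 20 tested genes known to be induced by the hormone, 6 rose and none fell. These were Cyp24a1, Spp1, Enpp1, Enpp3, Mmp13 and Atp2b1, against 0.526% of all genes, and the list's median was 0.27 against 0.02. The list was drawn up with results of these data known, so it is no independent evidence of direction. Members that did not pass included Lrp5 (a Wnt coreceptor; 5.58, 3.76 and 4.17 RPKM with vehicle, 4.19, 4.005 and 4.42 with VD3), Cebpb (a transcription factor; 33.8, 30.6 and 36.3 and 41.4, 42.4 and 39.2) and Tnfsf11 (RANKL, the signal for osteoclast formation; 1.02, 0.618 and 0.637 and 0.925, 0.9400 and 0.279). The Cebpb groups were separate but its SE was large (0.28 ± 0.25). Lrp5 and Tnfsf11 overlapped between groups. Of 9 tested genes known to be repressed by the hormone, Ibsp fell and none rose, and the median was -0.30. The share of all tested genes that fell was 0.246%.

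Among the genes of bone cells VD3 moved the 2 abundant phosphoproteins in opposite directions. Spp1, known to inhibit crystal growth, was at 872, 837 and 852 RPKM with vehicle and 1723, 1522 and 1538 RPKM with VD3. Every VD3 library was above every vehicle library, with a ratio of 1.87 (0.90 ± 0.10, adjusted p = 9.6e-06). Ibsp fell, as given above, so that Spp1 stood at 1.43 times the level of Ibsp with vehicle and 6.70 times with VD3, by the group means per length. Transcripts were summed by symbol and the counting tool is not given, so reads may count more than once for a gene. That limits the ratio between the 2 genes, and it was not tested. Both belong to the SIBLING family of secreted phosphoproteins, whose genes are clustered on chromosome 5. The other tested members, Dmp1 and Mepe, did not pass; Dmp1, which marks the osteocyte stage, was at 36.1, 47.2 and 39.98 and 32.4, 34.9 and 33.8 RPKM.

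Because Spp1, Ibsp and the collagenase gene Mmp13 carry the clearest changes of bone matrix here, the 300 bases around their starts are shown, from 250 bases before to 50 after, 5′ to 3′ on the gene's strand. They are RefSeq sequences on GRCm38.p6, a later build than the mm9 to which the reads were aligned, and capitals mark the letters of 2 short motifs on either strand: ACCACA, the core letters bound by Runx factors, and TGANTCA, the letters bound by AP-1. Mmp13 holds ACCACA starting 118 bases before its start and TGACTCA starting 35 bases before it, Spp1 holds ACCACA at 128 bases before its start, and the Ibsp window holds neither.
Mmp13 (chr9:7272264-7272563, plus strand): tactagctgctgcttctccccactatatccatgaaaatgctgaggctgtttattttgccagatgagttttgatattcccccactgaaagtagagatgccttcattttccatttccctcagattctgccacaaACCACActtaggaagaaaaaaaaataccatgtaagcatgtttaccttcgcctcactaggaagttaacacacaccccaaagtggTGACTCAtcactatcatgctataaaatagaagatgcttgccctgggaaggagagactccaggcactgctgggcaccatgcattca
Spp1 (chr5:104434861-104435160, plus strand): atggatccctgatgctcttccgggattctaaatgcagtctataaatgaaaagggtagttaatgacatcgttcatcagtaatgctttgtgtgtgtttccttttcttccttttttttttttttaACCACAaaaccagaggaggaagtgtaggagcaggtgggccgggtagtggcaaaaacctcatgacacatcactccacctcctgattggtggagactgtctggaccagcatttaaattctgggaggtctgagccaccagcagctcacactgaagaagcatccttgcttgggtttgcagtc
Ibsp (chr5:104299037-104299336, plus strand): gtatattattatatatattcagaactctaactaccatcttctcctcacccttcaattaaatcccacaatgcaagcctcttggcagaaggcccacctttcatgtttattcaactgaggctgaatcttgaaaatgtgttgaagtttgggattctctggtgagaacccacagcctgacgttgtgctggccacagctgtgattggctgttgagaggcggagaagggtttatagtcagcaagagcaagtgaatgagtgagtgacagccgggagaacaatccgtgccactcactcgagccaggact
Of all 32851 windows, 16.8% hold ACCACA and 7.81% hold TGANTCA on either strand. Of the changed genes, without those not reported one by one, 105 matched a window by symbol. A DR3 vitamin D response element was searched as a pair of half-sites in direct repeat with 3 letters between them. It was held by 0 of the 105 genes, against 0.256% of all windows. Of the 76 risen genes among the 105, 11 held ACCACA and 7 held TGANTCA in a window. Of the 29 fallen genes, 2 held ACCACA and 2 held TGANTCA. These counts are per gene, and the shares above are per window. The motif hits are matches of letters in short windows, and hormone-responsive sites are known to lie far from gene starts. Spp1 has 2 windows in the table and the first is shown.

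Of 21 tested osteoblast genes, Spp1 rose, 4 fell (Ibsp, Postn, Smpd3 and Tnfrsf11b) and 16 did not pass. Over all tested genes 0.526% rose and 0.246% fell. Of the 21 estimates 16 were below 0 (76.2%), against 45.8% over all tested genes and 57.7% over those that averaged 5 RPKM or more, and the median was -0.29. Postn, periostin, was at 285, 272 and 242 RPKM with vehicle and 197, 192 and 203 with VD3 (-0.43 ± 0.10, adjusted p = 0.04). Smpd3, a sphingomyelinase needed for mineralization, was at 2.53, 3.603 and 3.04 and 1.08, 1.11 and 1.59 RPKM (-0.84 ± 0.14, adjusted p = 0.0014). Tnfrsf11b, osteoprotegerin, the decoy receptor that blocks RANKL, was at 25.3, 25.7 and 25.7 and 14.2, 14.7 and 12.6 RPKM, with no overlap (-0.85 ± 0.16, adjusted p = 0.0069). It was the only one of 10 tested osteoclast-directing factors to change, and Tnfsf11 was at or below 1.02 RPKM throughout. Postn did not pass with vehicle replicate 1, vehicle replicate 2 or any 1 VD3 library left out (adjusted p of 0.089 to 0.29). Tnfrsf11b did not pass with VD3 replicate 3 left out (adjusted p = 0.0526). After background subtraction Smpd3 and Tnfrsf11b did not pass (adjusted p = 0.17 and 0.45). With only the 6 libraries in the fit Tnfrsf11b passed and Smpd3 did not (adjusted p = 0.13 for Smpd3).

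The master regulators of the lineage did not pass. Runx2 was at 7.52, 5.78 and 5.53 RPKM with vehicle and 4.86, 4.12 and 4.23 with VD3 (-0.42 ± 0.17, adjusted p = 0.63). Sp7, osterix, was at 6.21, 4.88 and 5.64 and 3.49, 3.35 and 3.39 RPKM (-0.57 ± 0.17, adjusted p = 0.2). In both genes the groups did not overlap. Alpl, the alkaline phosphatase that splits pyrophosphate, was at 31.4, 20.4 and 22.3 and 20.3, 17.8 and 20.8 RPKM, with overlap. Bglap at 19.5, 17.8 and 22.8 and 20.2, 23.5 and 20.1 RPKM, and its neighbour Bglap2 at 11.1, 14.2 and 18.2 and 20.1, 21.99 and 16.9 RPKM, also overlapped, and reads of these near-identical genes may be shared. Col1a1, a type I collagen chain, was at 101, 97.98 and 114 and 80.3, 86.9 and 86.5 RPKM, separate between groups but not passing (-0.30 ± 0.14, adjusted p = 0.8). Phex, an endopeptidase of phosphate control, was at 6.39, 6.06 and 7.19 and 3.11, 3.34 and 4.84 RPKM (-0.68 ± 0.17, adjusted p = 0.08). Phex passed when VD3 replicate 3 was left out (adjusted p = 0.036).

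Of 14 tested genes of mineralization and phosphate handling 4 rose (Enpp1, Enpp3, Spp1 and Fam20c) and Smpd3 fell, with a list median of -0.03. Estimates were above 0 for 7 of the 14. The shares over all tested genes were 0.526% risen and 0.246% fallen. Enpp1, the main source of extracellular pyrophosphate, an inhibitor of mineral growth, was at 30.1, 24.1 and 23.6 RPKM with vehicle and 46.5, 40.1 and 52.95 with VD3 (0.82 ± 0.13, adjusted p = 0.00078). Enpp3, a related ectoenzyme, was at 1.66, 1.98 and 1.703 and 6.18, 6.39 and 6.96 RPKM, a ratio of 3.65 (1.43 ± 0.14, adjusted p = 1.6e-06). Both were separate between groups. Enpp1 did not pass with only the 6 libraries in the fit (adjusted p = 0.056). Fam20c, the kinase that phosphorylates SIBLING proteins, was at 10.6, 12.2 and 12.4 and 20.4, 18.9 and 18.2 RPKM (0.67 ± 0.14, adjusted p = 0.015). Of 15 tested calcium transport and buffering genes, Atp2b1, a plasma membrane calcium pump, alone changed, from 44.8, 56.2 and 52.7 to 70.8, 62.8 and 70.9 RPKM (0.41 ± 0.09, adjusted p = 0.026). Fam20c did not pass with vehicle replicate 1, VD3 replicate 1 or VD3 replicate 2 left out (adjusted p of 0.057 to 0.13). Atp2b1 did not pass with vehicle replicate 1, vehicle replicate 3, VD3 replicate 1 or VD3 replicate 3 left out (adjusted p of 0.066 to 0.27).

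The lists of fibrous matrix, collagen and CCN family genes held falls and no rise, unlike the SIBLING genes above. Of 22 tested fibrous and adhesive matrix genes 5 fell and none rose (Postn, Tnc, Thbs1, Thbs2 and Loxl3), of 34 collagen chains 2 fell (Col5a1 and Col6a1), and of 6 CCN family genes 2 fell (Nov and Wisp1). Of all tested genes 0.246% fell, and of the 7978 genes that averaged 5 RPKM or more 48 did. The list medians were -0.10, -0.11 and -0.20, against 0.02 over all genes and -0.03 over the 7978 genes that averaged 5 RPKM or more. Tnc, the adhesion-modulating glycoprotein tenascin-C, was at 111, 104 and 97.4 RPKM with vehicle and 60.95, 54.5 and 53.98 with VD3 (-0.87 ± 0.11, adjusted p = 0.0001). Thbs1, thrombospondin, was at 148, 149 and 136 and 94.7, 96.97 and 99.5 RPKM (-0.57 ± 0.08, adjusted p = 0.00027). Nov, also called Ccn3, was at 182, 179 and 188 and 124.8, 129 and 112 RPKM (-0.59 ± 0.07, adjusted p = 7.9e-05). In these 3 genes no VD3 library reached a vehicle library, and no single left-out library ended the call. Tnc did not pass after background subtraction (adjusted p = 0.11), but passed with only the 6 libraries in the fit. The smaller falls were less stable: Col5a1 fell by 0.40, Col6a1 by 0.41, Thbs2 by 0.31, Loxl3, a lysyl oxidase relative, by 0.46 and Wisp1 by 0.39 on the log2 scale. Col5a1 did not pass with vehicle replicate 1, vehicle replicate 3, VD3 replicate 1 or VD3 replicate 2 left out (adjusted p of 0.13 to 0.29). Col6a1 did not pass with vehicle replicate 1, vehicle replicate 2, VD3 replicate 1 or VD3 replicate 2 left out (adjusted p of 0.084 to 0.21). Thbs2 did not pass with any 1 vehicle library, VD3 replicate 1 or VD3 replicate 2 left out (adjusted p of 0.064 to 0.16). Loxl3 did not pass with vehicle replicate 1, VD3 replicate 1 or VD3 replicate 2 left out (adjusted p of 0.06 to 0.11). Wisp1 did not pass with vehicle replicate 2, VD3 replicate 1 or VD3 replicate 2 left out (adjusted p of 0.0505 to 0.058). None of 16 tested proteoglycan and hyaluronan genes changed (median -0.19).

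Proteases and their inhibitors split. Mmp13, the collagenase of bone and cartilage, was at 62.1, 61.9 and 70.95 RPKM with vehicle and 149.9, 145 and 159 with VD3, a ratio of 2.33 (1.21 ± 0.12, adjusted p = 2.5e-06). Adamts1, a protease of proteoglycans, was at 102, 91.7 and 88.6 and 157, 129 and 149 RPKM (0.62 ± 0.10, adjusted p = 0.0022). Both rose with no overlap between groups. Timp3, a matrix-bound inhibitor of such proteases, was at 196, 172 and 160.5 and 106, 95.4 and 114 RPKM (-0.74 ± 0.09, adjusted p = 2.9e-05). The plasminogen activator Plau was at 19.4, 19.5 and 20.1 and 11.9, 12.7 and 10.7 RPKM (-0.69 ± 0.10, adjusted p = 0.00021), and the VD3 libraries of both genes lay below the vehicle libraries. These 4 genes changed among 29 tested genes of the list, whose median was -0.06, against 0.773% changed over all tested genes. None of the 4 calls ended when 1 library was left out. Adamts1 did not pass with only the 6 libraries in the fit (adjusted p = 0.066).

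**Figure D3:**
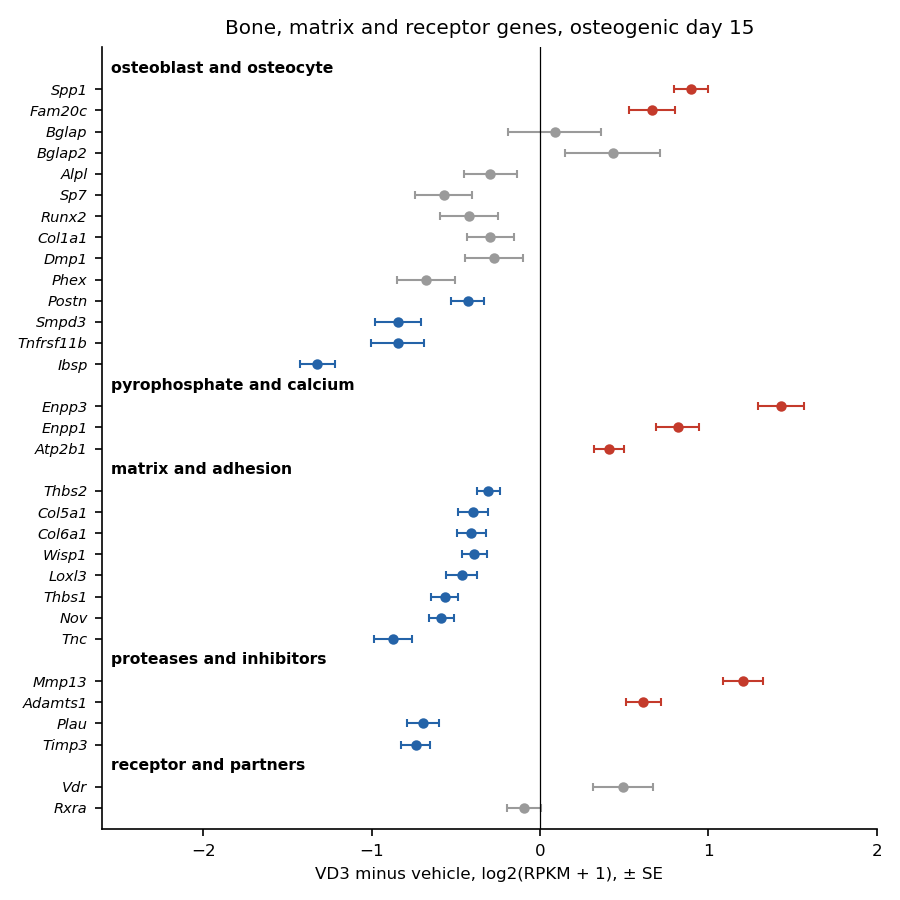
Difference between VD3 and vehicle (x axis, log2(RPKM + 1), bars ± 1 SE from the limma fit, 3 libraries per group) for bone, matrix, protease and receptor genes of osteogenic day 15. Red genes rose, blue genes fell and grey genes did not pass; Spp1 lies at 0.90 and Ibsp at -1.32, while Runx2, Sp7, Alpl and Col1a1 are below 0 without passing.

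Secreted signals also changed in both directions. Of 22 tested ligands of the FGF, PDGF, EGF, VEGF and related families, Vegfa and Angpt1 rose and Fgf7 fell, with a median of -0.09. The shares over all tested genes were 0.526% risen and 0.246% fallen. Vegfa, the main angiogenic factor, was at 96.9, 104 and 110.0 RPKM with vehicle and 188, 176 and 151 with VD3 (0.72 ± 0.11, adjusted p = 0.00057). Angpt1, a ligand of the endothelial receptor Tek, was at 67.8, 70.5 and 64.3 and 117, 109 and 118 RPKM (0.76 ± 0.09, adjusted p = 2.3e-05). Neither overlapped between groups. Sema3e, a guidance ligand, rose by 0.80 (adjusted p = 0.00028), the only change among 13 semaphorins, and the complement component C3 rose by 0.85 from a vehicle level of at most 0.476 RPKM. Sema3e and C3 did not pass with only the 6 libraries in the fit (adjusted p = 0.078 and 0.18). Fgf7, a growth factor for epithelial cells, fell by 0.50 on the log2 scale. Fgf7 did not pass with vehicle replicate 1, vehicle replicate 2, VD3 replicate 1 or VD3 replicate 3 left out (adjusted p of 0.0518 to 0.11).

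Wnt, BMP and TGF-beta genes gave single changes, where 0.773% of all tested genes changed. The secreted Wnt antagonist Sfrp4 was at 77.6, 78.7 and 72.3 RPKM with vehicle and 40.3, 46.7 and 44.2 with VD3, with no overlap (-0.79 ± 0.12, adjusted p = 0.00065), the only one of 10 tested antagonists to change. Among 26 tested Wnt ligands and receptors Wnt5a rose by 0.36 and the receptor Fzd2 fell by 0.50 on the log2 scale. Apcdd1, a Wnt target that itself inhibits Wnt signalling, rose by 0.75 (adjusted p = 0.0015). Of 15 BMP ligands, receptors and antagonists Fst, follistatin, rose by 0.86, none of 6 BMP target genes changed, and of 12 TGF-beta genes Tgfbi, a matrix protein induced by TGF-beta, fell by 0.60 on the log2 scale. Sfrp4 and Apcdd1 kept their calls without any 1 library, but not after background subtraction (adjusted p = 0.84 and 0.086), and Sfrp4 did not pass under quantile normalization (adjusted p = 0.14). Both passed with only the 6 libraries in the fit. The background subtracted was at most 0.546 RPKM in these 6 libraries. It was up to 4.93 RPKM in day 0 libraries, which share the estimate of spread. Why the calls were lost was not tested. Wnt5a did not pass with vehicle replicate 1, vehicle replicate 2 or any 1 VD3 library left out (adjusted p of 0.085 to 0.29). Fzd2 did not pass with vehicle replicate 1, vehicle replicate 3 or any 1 VD3 library left out (adjusted p of 0.066 to 0.27). Fst did not pass with vehicle replicate 1, vehicle replicate 3 or VD3 replicate 3 left out (adjusted p of 0.0505 to 0.09). Tgfbi did not pass with any 1 of the 6 libraries left out (adjusted p of 0.084 to 0.27).

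Most of the growth and metabolic lists held no changed gene, while those of cell cycle inhibitors and glucocorticoid-responsive genes held some. The share of all tested genes that changed was 0.773%, and at that share lists of this size often hold none. None of 31 cell cycle and DNA replication genes changed (median -0.19), and of 13 cell cycle inhibitors and p53 targets Cdkn2b, an inhibitor of cyclin-dependent kinases, rose by 0.45, Sesn1 rose and Gadd45g fell. None of 19 sterol genes (median -0.13), 17 fatty acid and triglyceride genes, 22 respiratory genes or 13 IGF system genes changed. Among 14 glucocorticoid-responsive genes Hsd11b1, which activates glucocorticoids, rose by 0.76 and Sgk1, a kinase, fell by 0.49 on the log2 scale. None of 18 tested adipocyte markers passed, though 15 estimates were above 0 (83.3%, against 54.1% over all tested genes) and their sums, given above, did not overlap. Of the 18, 11 were below 1 RPKM in every library. Among 1473 tested olfactory, vomeronasal and taste receptor genes, the background set, 1095 estimates were above 0. The median was 0.16 for that set and 0.11 for the adipocyte markers. The part of the background in the adipocyte estimates was not tested. Pparg, the regulator of fat-cell formation, was at 8.95, 6.46 and 7.82 RPKM with vehicle and 8.65, 7.89 and 8.71 with VD3, and the fatty acid binding protein gene Fabp4 at 5.13, 5.599 and 6.66 and 8.52, 6.500 and 6.43, with overlapping groups. None of the tested members of the chemokine, interferon, MHC class I, immediate early and oxidative stress lists (31, 22, 9, 18 and 16 genes) changed. Cdkn2b did not pass with vehicle replicate 1 or VD3 replicate 1 left out (adjusted p of 0.0513 to 0.063). Hsd11b1 did not pass with vehicle replicate 1 or VD3 replicate 1 left out (adjusted p of 0.068 to 0.069). Sgk1 did not pass with vehicle replicate 1, vehicle replicate 3, VD3 replicate 1 or VD3 replicate 3 left out (adjusted p of 0.074 to 0.16). Nor did Sgk1 pass when the largest transcript value replaced the sum over transcripts (adjusted p = 0.50).

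The day 15 response was compared with the response of the same treatment in the other 3 states, each against its own vehicle libraries. Of the 111 genes that rose at day 15, 108 also rose at osteogenic day 7 (97.3%, and 17.6% of the 614 that rose there), where 2.91% of all genes did. Of the 52 that fell, 38 also fell at day 7 (73.1%, and 7.66% of 496), where 2.35% of all genes did. The response at day 7 was wider, with 1110 genes changed (5.26%) against 163, and 99 of the 111 rises were larger there, with a median of 1.13 against 0.77. The difference itself passed for few genes: 39 of the 21097 (0.185%; 0.0521% higher and 0.133% lower at day 15) differed between day 15 and day 7, among them 12 of the 111 rises and 1 of the 52 falls, Plau. Without the background-heavy day 0 libraries in the fit 11 genes differed, and with the total rescaled to leave out Rn7sk 92 did, 3 higher and 89 lower.

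Inmt and Mmp13 were the clearest of the genes with a smaller rise at day 15. Inmt rose by 2.26 at day 15 and 5.04 at day 7, a difference of -2.78 (adjusted p = 3.5e-05). Mmp13 rose by 1.21 and 2.62, a difference of -1.41 (adjusted p = 0.00025). The calls of both differences held under every alternative run. Cyp24a1 and Dio2 rose by 4.22 and 2.90 at day 7, and these did not differ detectably from day 15 (adjusted p of the difference = 0.19 and 0.96). Spp1 rose by 0.99 and Ibsp fell by 1.57 at day 7, also without a detectable difference (adjusted p = 1 and 0.92).

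Cell cycle genes were lower with VD3 at day 7 and not detectably so at day 15. Of 31 such genes 20 fell at day 7 (median -0.60) and none at day 15 (median -0.19), but the difference between the days passed for 1 of them, Top2a, a topoisomerase of dividing cells that was singled out after its values were seen. Top2a stood at 37.2, 28.9 and 28.6 RPKM with vehicle and 28.2, 24.3 and 26.6 with VD3 at day 15, where the groups did not overlap, and its effect was -0.25 against -0.91 at day 7. Prc1, Uhrf1 and Kif11, genes of cytokinesis, DNA methylation upkeep and the spindle, fell at day 7 by 0.93, 1.02 and 0.94 and had estimates of -0.03, -0.18 and -0.15 at day 15. Of 19 sterol genes 10 fell at day 7 (median -0.43), and the difference from day 15 passed for none.

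Adipogenic cells gave the same direction for some bone and matrix genes and the opposite for others. Of the 111 rises 61 also rose in adipogenic cells (55.0%, and 19.2% of 318 there), where 1.51% of all genes did, and of the 52 falls 20 also fell (38.5%, and 16.5% of 121), where 0.574% did and 2.08% changed either way. The difference passed for 151 genes (0.716%; 0.237% higher and 0.479% lower at osteogenic day 15), 35 of them among the 163. Calls were opposite for 6 genes: Mmp13, Adamts1 and Kitl, the stem cell factor, rose at osteogenic day 15 and fell there, while Timp3, Sfrp4 and Tes, a focal adhesion protein, fell at osteogenic day 15 and rose there. Mmp13 had effects of 1.21 and -0.59 (adjusted p of the difference = 1.2e-06), and Timp3 of -0.74 and 0.39 (adjusted p = 1e-05). Dio2 had an effect of 0.25 in adipogenic cells and Cyp24a1 of 1.71, both smaller than at osteogenic day 15 (adjusted p = 9.5e-07 and 0.0035). With a pseudocount of 0.1 the difference for Cyp24a1, which is near 0 RPKM with vehicle, did not pass (adjusted p = 0.26). Ibsp fell more there, by 4.64 (adjusted p = 3.5e-12).

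In undifferentiated cells 92 of the 111 rises and 39 of the 52 falls were also called, where 3.98% of all genes rose and 11.0% fell. The difference passed for 600 genes (2.84%; 1.64% higher and 1.20% lower at day 15). Day 0 libraries had a receptor-gene background of up to 4.93 RPKM and depths down to 7.12 M reads, and the part of these in the difference was not tested beyond the alternatives. Dio2 had an effect of 0.81 in undifferentiated cells against 2.57 at day 15 (adjusted p = 2.1e-05), a difference that did not pass after background subtraction (adjusted p = 0.65). Nov fell less at day 15 (-0.59 against -2.27; adjusted p = 2.9e-09). Across all 4 states 58 of the 111 rises and 18 of the 52 falls were called in the same direction, among them Cyp24a1, Spp1, Enpp1 and Enpp3 for the rises and Ibsp, Tnfrsf11b, Tnc, Nov and Plau for the falls.

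**Figure D4:**
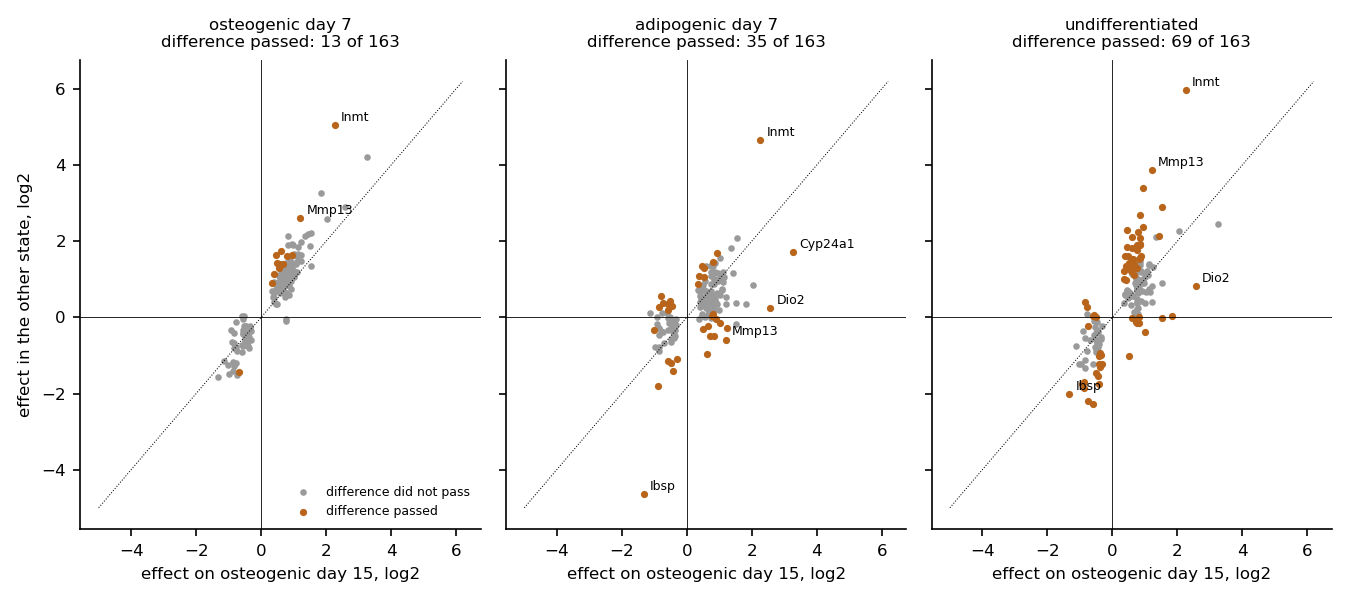
Effect of VD3 in another state (y axis, log2(RPKM + 1)) against its effect on osteogenic day 15 (x axis, same scale) for the 163 genes changed at day 15; the dotted line marks equal effects and brown points are genes whose difference passed. These are 13 genes against osteogenic day 7, 35 against adipogenic day 7 and 69 against undifferentiated cells.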

How the data were processed

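Total RNA (TRI-Reagent, with a lithium chloride step and DNase) was rid of ribosomal RNA and made into strand-specific libraries, per the labels' protocols. Reads were aligned with TopHat (version not given) to mm9, per the submitters' processing notes; the counting tool, annotation and filters are not given in the sources used here. The authors deposited RPKM per transcript (30795 per library). Transcripts were summed by gene symbol, without 25 symbols that had become dates, which left 25385 genes. Depth was estimated from the step between low values of olfactory receptor genes. The 21097 genes that reached 1 RPKM in 3 or more of the 24 libraries were tested on log2(RPKM + 1), with a pseudocount of 1, by limma 3.58.1 in R 4.3.3: a mean for each of 8 groups, robust empirical Bayes with a trend, and Benjamini-Hochberg adjustment over all genes of a comparison. All groups share 1 estimate of spread. Differences between states were contrasts of the same fit.

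Named genes are the 15 largest rises and 15 largest falls whose higher group averaged 5 RPKM or more without overlap, the changed members of the described lists of 49 gene lists, a set of vitamin D and bone genes given whether changed or not, and the 5 largest differences each way against every other state; predicted and clone genes, small RNAs, pseudogenes, histones and sensory receptors were left out of the ranked sets. A few genes are not reported here one by one or in the lists, and they stay in the fit and in counts over all genes. Lists and members were chosen with earlier results of these data known, and genes added after seeing values are named as such. Motifs were searched in RefSeq promoter windows (GRCm38.p6) with Python 3.11.15. Alternatives covered the pseudocount, filters, scaling, transcript choice, the fit and leaving out each library.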

Additional observations from a re-analysis of the deposited data

Results flagged for a closer look

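The genes in this part are those whose response to VD3 at osteogenic day 15 differed from the response in another state by a limma contrast with adjusted p under 0.05: for each other state the 5 largest differences each way, and any of the 15 largest rises and 15 largest falls of day 15. Values are the effect at day 15 minus the effect in the other state, on the log2(RPKM + 1) scale, with 3 libraries per group. Higher and lower refer to this signed value and not to the size of the response. For a gene that fell in both states, higher means a smaller fall at day 15 and lower a larger one.

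Against osteogenic day 7, 10 such genes differed. The response was lower at day 15 in Inmt (-2.78), Mmp13 (-1.41), F13a1 (-1.16), Acpp (-1.12) and Slc17a5 (-1.07), and higher in Car3 (1.58), Prc1 (0.90), Uhrf1 (0.84), Kif11 (0.79) and Plau (0.74). The calls of Inmt and Mmp13 held under every alternative run, and those of the other 8 were lost under at least 1. Inmt and Mmp13 rose in both states, whereas Slc17a5, a lysosomal sialic acid transporter, rose at day 7 and had an estimate of -0.34 at day 15. Car3, a carbonic anhydrase, fell at day 7 and did not pass at day 15 (0.39).

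Against adipogenic cells, 19 such genes differed. The response was lower at osteogenic day 15 in Inmt (-2.40), Ttc39c (-2.31), Elfn1 (-2.30), Smoc2 (-2.19), Col16a1 (-2.18), Prss23 (-0.68), Serpinb1a (-1.12), Sfrp4 (-1.34) and Timp3 (-1.12). It was higher in Ibsp (3.32), Omd (2.54), Dio2 (2.33), Otor (1.95), Mmp13 (1.79), Cyp24a1 (1.55), Fam110c (1.52), Ptx3 (1.17), Tnc (0.94) and Nov (0.57). Of these calls 11 held under every alternative run. Ibsp fell in both states and more in adipogenic cells. The matrix protein osteomodulin (Omd) and Otor fell in adipogenic cells and did not pass at osteogenic day 15 (-0.42 and 0.37), and Smoc2, Col16a1, Elfn1 and Ttc39c rose there without passing at osteogenic day 15. Otor is listed at 0 in 3 of the 6 day 15 libraries.

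Against undifferentiated cells, 21 such genes differed. The response was lower at day 15 in Inmt (-3.70), Mmp13 (-2.66), Ttc39c (-2.57), Cib2 (-2.45), Pmaip1 (-2.04), Enpp3 (-0.71), Sfrp4 (-1.07), Timp3 (-0.52) and Cdipt (-0.64). It was higher in Omd (2.42), Car3 (2.26), Phyhipl (1.97), Cxcl1 (1.92), Gprin3 (1.91), Dio2 (1.76), Slpi (1.81), Lgals2 (1.55), Ibsp (0.70), Tnc (0.84), Csrp2 (1.47) and Nov (1.69). Of these calls 14 held under every alternative run. Day 0 libraries carried the highest receptor-gene background of the series (up to 4.93 RPKM, against at most 0.546 RPKM at day 15), and its part in these differences was not tested beyond the alternative that subtracts it.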

How the results depend on the processing

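The direction of each of the 80 named genes changed at day 15 was kept under every alternative that was run for it, and 28 kept the call under all of them, including Cyp24a1, Dio2, Inmt, Enpp3, Mmp13, Spp1, Ibsp, Timp3, Plau and Nov. The calls of 44 were lost with only the 6 libraries in the fit, 33 after background subtraction, 28 with the replicate block, 20 under quantile normalization, 16 with plain empirical Bayes and at most 13 under each other setting that kept all 6 libraries. With the largest transcript value in place of the sum over transcripts, 6 calls were lost (Cdipt, Tpm1, Tmem2, Sgk1, Eno3 and Tgfbi). The count of genes was less stable than its leading members. Against 111 higher and 52 lower, the fit on the 6 libraries alone gave 45 and 18, and background subtraction (chosen after seeing the data) 56 and 26. Quantile normalization gave 84 and 29 and plain empirical Bayes 93 and 31. Leaving out 1 library gave 72 to 87 higher and 21 to 37 lower; the lowest counts were 72 higher and 22 lower without VD3 replicate 1 and 21 lower without vehicle replicate 1, with 29 lower without vehicle replicate 3 and 32 lower without VD3 replicate 2. Rescaling to the total without Rn7sk (chosen after seeing the data) gave 78 and 51. The 39 differences from osteogenic day 7 became 108 with a filter at 5 RPKM, 91 with a filter on the compared libraries, 92 without Rn7sk in the total (which moved the median of all genes by -0.12), 12 with plain empirical Bayes, 11 without the day 0 libraries, 8 with only the compared libraries and 4, all lower, after background subtraction. Leaving out 1 library gave 12 to 34. The 600 differences from undifferentiated cells became 385 with only the compared libraries and 392 without Rn7sk, and 375 to 522 without 1 library; their split of 347 higher and 253 lower became 299 and 449 under quantile normalization (median shift -0.35) and 168 and 550 after background subtraction (shift -0.27). The 151 differences from adipogenic cells stayed within 1.5 times, at 116 to 141 without 1 library. The cause of these changes was not tested. Without 1 library, the estimates of 3 genes that did not pass crossed 0: Tnfsf11 ranged from -0.16 to 0.14 (above 0 without vehicle replicate 1 or VD3 replicate 3), Lrp5 from -0.17 to 0.069 (without vehicle replicate 1) and Rxra from -0.17 to 0.018 (without VD3 replicate 3). A term for the replicate number, used as a block, gave 76 higher and 24 lower, 5 differences from day 7 and 360 from undifferentiated cells. The labels do not say that a number marks a shared culture, and deviations of same-numbered vehicle and VD3 libraries of day 15 correlated at -0.05, 0.20 and -0.14, so the numbers were not taken to pair the libraries; not every library correlated best with its own number. Depth limits genes near 0.0678 to 0.0941 RPKM, the value of 3 reads on 1 kilobase, a floor for counting error only.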

Other observations

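Apart from Hsd11b1 and Angpt1, given above with their lists, the following genes were singled out after their values were seen. They come from the 163 changed at day 15 and belong to no list in which they were called. They were picked singly, so no pathway is counted or tested. Among rises, Xdh, xanthine dehydrogenase, was at 16.2, 16.2 and 16.3 RPKM with vehicle and 23.1, 21.9 and 22.8 with VD3 (adjusted p = 0.0087), Gda, guanine deaminase, at 8.68, 10.7 and 10.1 and 13.99, 14.6 and 13.4 (adjusted p = 0.00049), and Pnp, purine nucleoside phosphorylase, at 64.8, 54.4 and 58.6 and 84.3, 87.97 and 110.1 (adjusted p = 0.003). Pnp shares sequence with its copy Pnp2, so its reads may be split between them. Xdh did not pass with VD3 replicate 1 left out (adjusted p = 0.057). Gda and Pnp did not pass with only the 6 libraries in the fit (adjusted p = 0.21 and 0.099). Klhl33 and Krt17, a keratin, rose from at most 0.724 and 0.190 RPKM with vehicle to 4.81, 4.85 and 5.03 and 2.595, 1.93 and 1.79 RPKM. Emp1, a membrane protein, was the most abundant of this set to rise, from 295, 310.3 and 334 to 550.2, 502 and 580.0 RPKM. None of the 16 tested genes of the proteoglycan and hyaluronan list changed. Outside that list, the hyaluronan-degrading protein Cemip, listed as 9930013L23Rik, rose by 0.95 and its relative Tmem2 fell by 0.40 on the log2 scale, while Csgalnact1 and Chsy1, which build chondroitin sulfate, fell by 0.56 and 0.43 and the proteoglycan Sdc2 by 0.42. Tmem2 did not pass with vehicle replicate 1, vehicle replicate 3 or any 1 VD3 library left out (adjusted p of 0.085 to 0.22). Nor did Tmem2 pass when the largest transcript value replaced the sum over transcripts (adjusted p = 0.93). Chsy1 did not pass with any 1 vehicle library, VD3 replicate 1 or VD3 replicate 2 left out (adjusted p of 0.0529 to 0.23). Sdc2 and Csgalnact1 did not pass with only the 6 libraries in the fit (adjusted p = 0.12 and 0.0505).

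Ets1 rose by 0.52 and its relative Ets2 fell by 0.44 on the log2 scale, while Cebpd rose from 17.02, 12.98 and 14.7 to 30.3, 31.2 and 24.8 RPKM. Dusp6, a phosphatase that limits ERK signalling, rose from 23.6, 24.8 and 24.05 to 37.6, 41.4 and 44.3 RPKM and Etv5, an ETS factor, by 0.56. Hp, the haemoglobin-binding plasma protein haptoglobin, rose from 48.6, 53.6 and 48.1 to 91.1, 92.3 and 92.3 RPKM, with the 3 VD3 libraries nearly equal. Ets1 did not pass with only the 6 libraries in the fit (adjusted p = 0.13). Ets2 did not pass with vehicle replicate 1, vehicle replicate 3 or any 1 VD3 library left out (adjusted p of 0.084 to 0.24). Etv5 did not pass with vehicle replicate 2 or VD3 replicate 3 left out (adjusted p of 0.067 to 0.076). The angiopoietin Angpt2 rose by 0.80 beside Angpt1, and Tmem119, a membrane protein of osteoblasts, fell by 0.55 on the log2 scale. Angpt2 did not pass with vehicle replicate 1, vehicle replicate 3, VD3 replicate 1 or VD3 replicate 2 left out (adjusted p of 0.096 to 0.28). Tmem119 did not pass with any 1 vehicle library, VD3 replicate 1 or VD3 replicate 3 left out (adjusted p of 0.055 to 0.27). Tpm1, a tropomyosin, fell from 1291, 1173 and 1235 to 939.9, 964 and 954 RPKM. Tpm1 did not pass with any 1 of the 6 libraries left out (adjusted p of 0.058 to 0.23). Nor did it pass when the largest transcript value replaced the sum over transcripts.

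Of the rises at day 15, Eno3, Hsd11b1 and Cdrt4 did not pass at osteogenic day 7, with effects there of -0.11, -0.05 and 0.54, and for none of the 3 did the difference between the days pass (adjusted p = 0.22, 0.11 and 1). Eno3 did not pass with any 1 of the 6 libraries left out (adjusted p of 0.067 to 0.29). Cdrt4 did not pass with any 1 of the 6 libraries left out (adjusted p of 0.065 to 0.22). Net1 rose by 0.50 at day 15 and fell by 1.02 in undifferentiated cells (adjusted p of the difference = 2e-07). Net1 did not pass with VD3 replicate 1 left out (adjusted p = 0.0549). Kitl and Tes, with opposite calls in adipogenic cells, had effects of 0.83 and -0.50, and of -0.46 and 0.30, at osteogenic day 15 and in adipogenic cells. The day 15 fall of Tes did not pass with only the 6 libraries in the fit (adjusted p = 0.13).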
